A study of Zea mays with 2 samples.

Results

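The chromatin modifiers and remodellers of maize (Zea mays) endosperm were compared between dek33, a defective kernel mutant, and wild type, each sampled 15 days after pollination. The labels give the tissue as endosperm and the source as kernel. Of 33283 genes in the deposited tables, 65 were members. They were chosen by the words of their descriptions, which name enzymes that write or erase marks on DNA and histones, Polycomb proteins, argonautes, SNF2 and other remodelling factors, high mobility group (HMG) proteins and chromatin assembly factors. Genes described as histones themselves were left out. Each genotype had 1 value per gene although the design text speaks of triplicates, so differences compare these libraries and carry no replicate check, no error and no p-value. The mutant allele and the inbred background are not stated in the labels.

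In a nucleus, DNA is wound on histones, and chemical marks on both decide how readily a gene is read. Writers add these marks, erasers remove them, remodellers of the SNF2 family move nucleosomes with the energy of ATP, and histone chaperones deposit histones behind the replication fork. In cereal endosperm, Polycomb genes are known for imprinting, the expression of only 1 parent's copy, and DNA methyltransferases and argonautes act in the silencing of transposons. No sequence of a member is shown, since the sources used here give gene names only.

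Values are in FPKM, fragments per transcript length and library size, a unit that allows levels of different genes to be compared. The log2 ratio of a gene is log2((dek33 FPKM + 1)/(wild type FPKM + 1)), which understates the change of low genes. Higher and lower in dek33 mean a ratio of 2-fold or more by this formula in a gene that reached 5 FPKM in 1 or both libraries. The FPKM total was 761570.5 for dek33 and 672660.4 for wild type. Over 21688 genes that reached 1 FPKM in 1 or both libraries, the log2 ratio had a median of 0.44, which is 1.36-fold. Centred log2 ratios have this median subtracted. PyrR (GRMZM2G090068), the riboflavin pathway gene known as the dek33 locus, had 6.44 FPKM in dek33 and 4.55 in wild type, which does not check the labels. Zeins and starch genes, the markers of starchy endosperm, made up 17.9% of all FPKM in dek33 and 32.4% in wild type, where 3 zein genes were listed at 0. With these 3 genes left out of the marker sum, but not out of the total, the shares were 10.2% in dek33 and 32.4% in wild type. In whole tissue, fewer cells of a type and less RNA per cell cannot be told apart.

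As a group, the chromatin genes followed the shift of all genes, and single genes departed from it in both directions. Of the 65 members, 62 had at least 1 FPKM in 1 or both libraries and 53 had at least 5. By the deposited values, 9 of these 53 (17%) were higher in dek33, against 14.8% of all 14348 genes with at least 5 FPKM, and 1 (1.89%) was lower, against 4.02%. After centring, 3 (5.66%) were higher, against 4.4% of all genes, and 2 (3.77%) were lower, against 6.79%. These shares lie near the background, so the number of higher or lower members is no result about the members. The median log2 ratio was 0.50 for the 62 members and 0.44 for all genes, and at 5 FPKM or more it was 0.50 for members and 0.52 for all genes. The middle 50% of members at 5 FPKM or more spanned 0.57 log2 units and that of all genes 0.62. Of the 62 members, 57 (91.9%) had a higher FPKM in dek33 and 5 a lower one, where 78.5% of all 21688 genes had a higher one. Against the median of all genes, 35 members lay above it and 27 below it. No member was listed at 0 in either library.

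**Figure D1:**
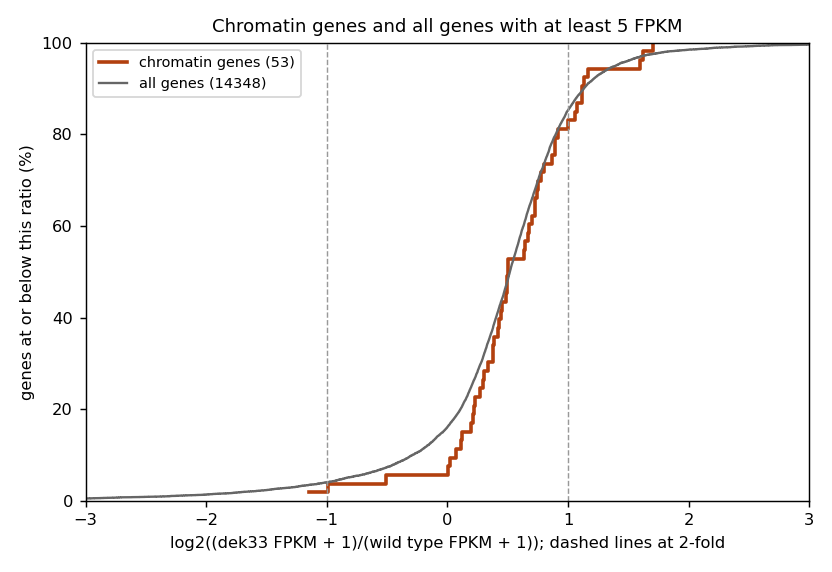
Cumulative share of genes (percent, vertical axis) at or below each log2 ratio of dek33 over wild type (horizontal axis), for the 53 chromatin genes and all 14348 genes with at least 5 FPKM in 1 or both libraries. The curves run close to each other near their medians of 0.50 and 0.52, and dashed lines mark the 2-fold limit that 9 members pass upward and 1 downward.

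The order of the members by level was largely shared. The 10 most abundant members carried 57.0% of all member FPKM in dek33 and 56.4% in wild type, and 8 of them were the same genes. The most abundant in both was GRMZM2G078033, described as a lysine-specific histone demethylase, with 291 FPKM in dek33 and 214 in wild type. It was followed by the plant-specific HD2-type deacetylases hdt102 and hdt103, which changed places. Members together made up 0.247% of summed FPKM in dek33 and 0.181% in wild type, a share that also depends on the zeins. In all, 34 members kept their rank within 3 places. The largest climb was that of nfd101, which stood at rank 26 in dek33 and at rank 44 in wild type, a gain of 18 places. The largest drop was that of the argonaute gene GRMZM2G589579, which stood at rank 43 in dek33 and 19 in wild type.

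**Figure D2:**
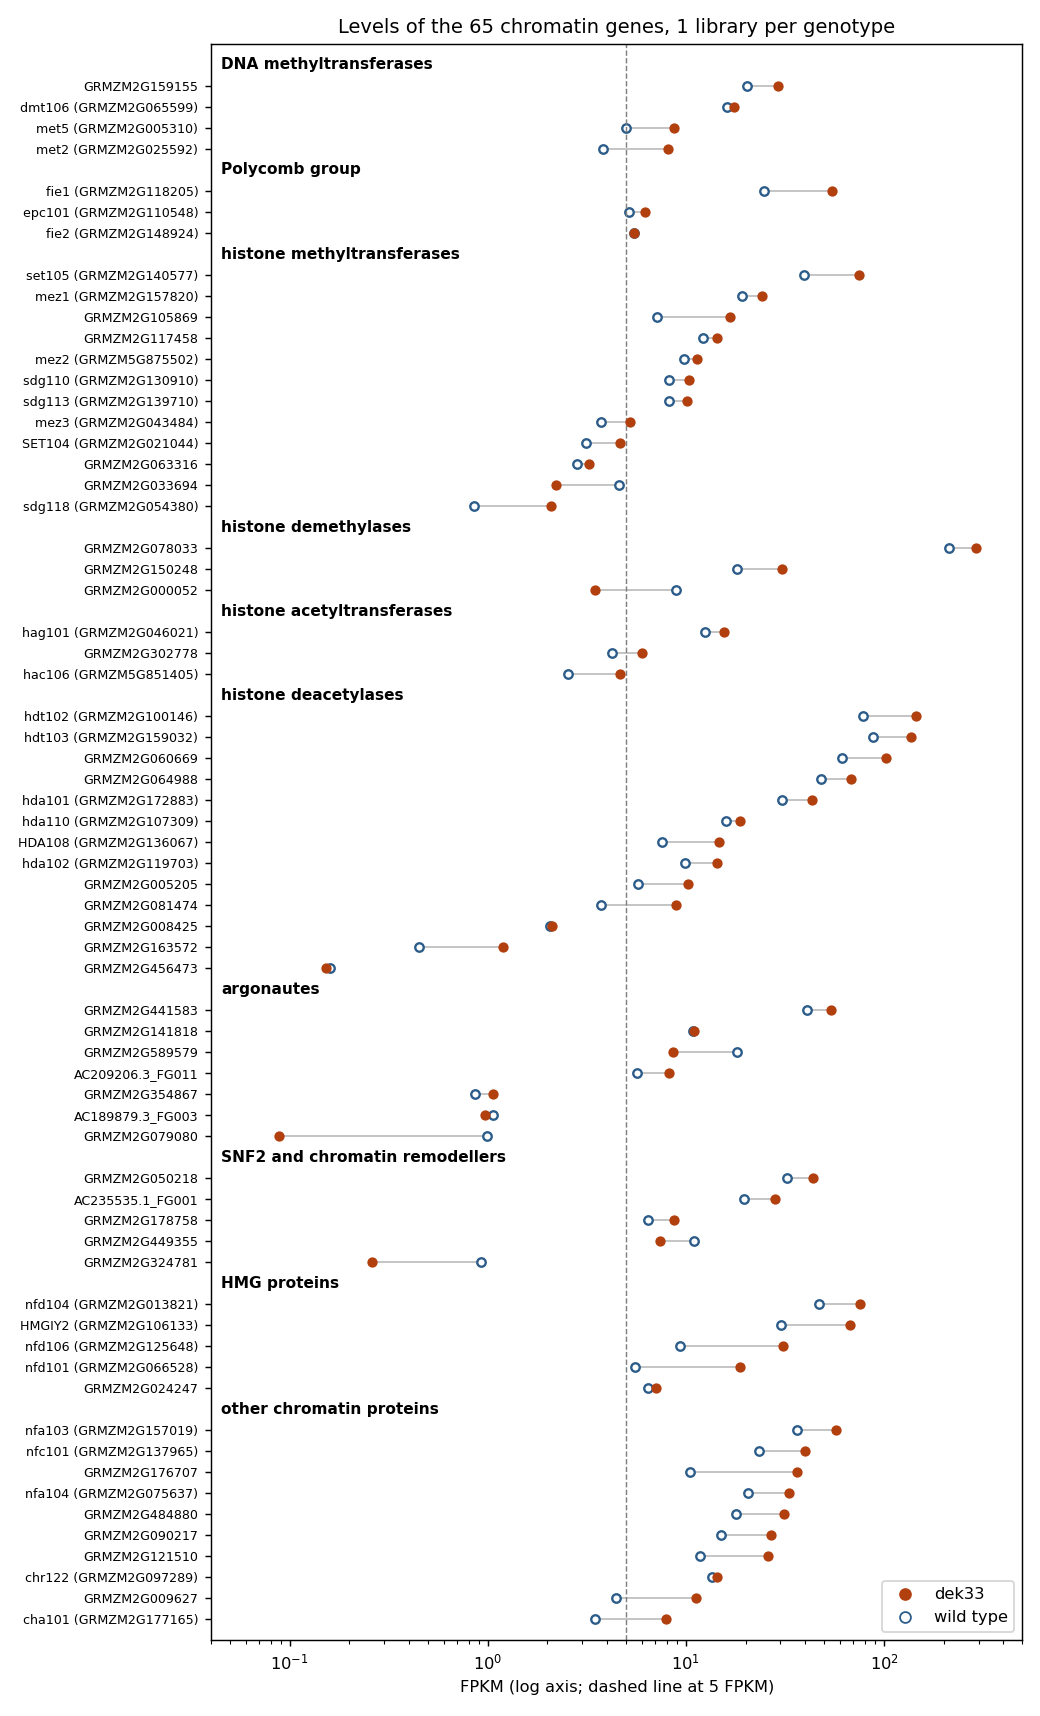
FPKM of each of the 65 chromatin genes (log axis) in the dek33 library (filled points) and the wild type library (open points), grouped by role class, with 1 library per genotype and no error bars. Most filled points lie to the right of their open partners, GRMZM2G078033 stands highest at 291 and 214 FPKM, and the argonaute GRMZM2G589579 and the demethylase-like GRMZM2G000052 lie to the left in dek33.

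Sorted into role classes by the same words, the HMG proteins among the members had the highest class median and the argonautes the lowest. The words missed HMG genes, given below, whose ratios lay under the HMG median. The median log2 ratio was 1.13 over 5 HMG proteins, 0.79 over 10 other chromatin proteins, 0.62 over 12 histone deacetylases, 0.60 over 4 genes of DNA methylation, 0.44 over 3 histone demethylases, 0.43 over 3 histone acetyltransferases and 0.40 over 4 SNF2 genes. It was 0.32 over 12 histone methyltransferases, 0.23 over 3 genes of the Polycomb class and 0.08 over 6 argonautes. Relative to the median of all genes, 4 of 5 HMG proteins, 9 of 10 other chromatin proteins and 10 of 12 deacetylases lay above it, while 8 of 12 histone methyltransferases and 5 of 6 argonautes lay below it. These tallies depend on the minimum, since the median of all genes was 0.44 at 1 FPKM or more, 0.52 at 5 and 0.64 at 20. Centring turned the medians of the Polycomb class, the histone methyltransferases, the SNF2 genes and the argonautes to values below 0 (-0.21, -0.12, -0.04 and -0.36), so no direction is read for these classes. Without epc101, whose locus is shared, the Polycomb class had a median of 0.56 over the FIE pair alone. The words put the Polycomb genes mez1, mez2 and mez3 among the histone methyltransferases. Regrouped by hand after the data were seen, the FIE and EZ genes together had a median of 0.34 (-0.11 centred) over 5 genes. Of these, 4 lay below the median of all genes and 1 above it. A change of sign or a value near 0 was also seen for acetyltransferases (-0.01) and demethylases (0 after rounding, with 1 lower gene among the 3).

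**Figure D3:**
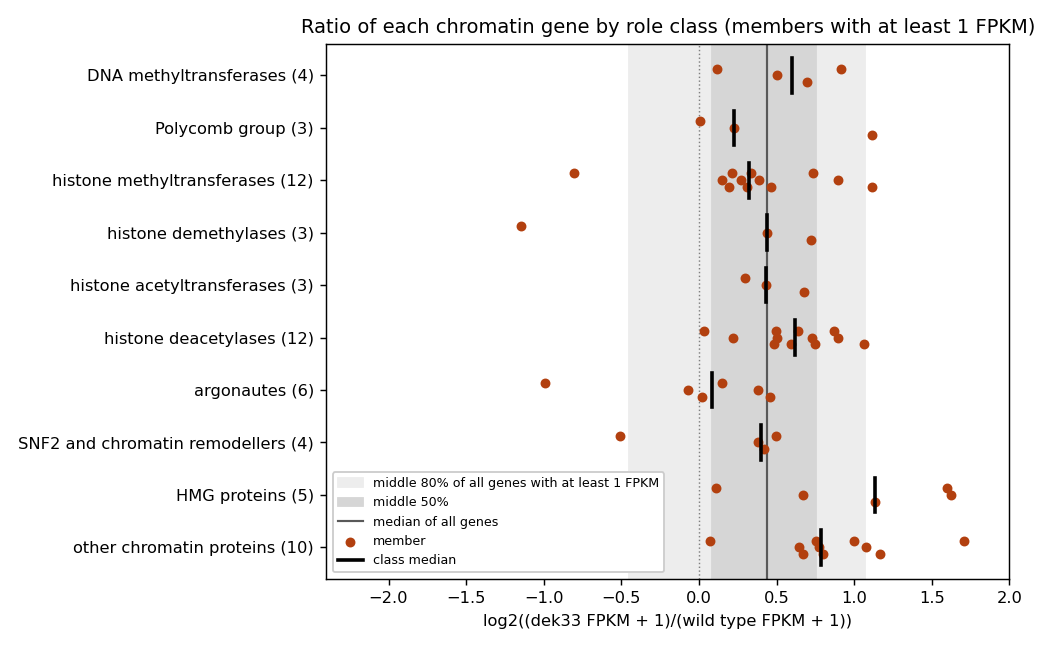
Log2 ratio of dek33 over wild type (horizontal axis) for each chromatin gene with at least 1 FPKM, by role class, with the number of genes in brackets and class medians as black bars. Shading gives the middle 50% and 80% of all genes around their median of 0.44. The HMG proteins reach 1.62 and the other chromatin proteins 1.70, and the lowest points are a demethylase-like gene at -1.14 and an argonaute at -0.99.

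The 3 members that stayed at least 2-fold higher after centring were an assembly factor and a pair of HMG proteins, proteins that carry histones or bend DNA. GRMZM2G176707 (chromosome 8, 135485462 to 135489635, B73 RefGen_v3), described as a nucleosome and chromatin assembly factor of group A, had 36.3 FPKM in dek33 and 10.4 in wild type, a log2 ratio of 1.70 (1.26 centred). Group A factors are histone chaperones of the NAP1 type, which carry H2A and H2B. The HMG-box gene nfd106 (GRMZM2G125648, chromosome 4, 195556757 to 195558537) had 30.9 FPKM in dek33 and 9.35 in wild type, a log2 ratio of 1.62 (1.18 centred). The related nfd101 (GRMZM2G066528, chromosome 7, 146931998 to 146933950) had 18.7 and 5.51 FPKM, a log2 ratio of 1.60 (1.16 centred). As plain ratios of FPKM, these 3 genes were 3.48-fold, 3.31-fold and 3.39-fold more abundant in dek33, in the order given.

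Other HMG proteins differed less. HMGIY2 (GRMZM2G106133), an HMGA protein with AT-hook motifs that bind the minor groove of A/T-rich DNA, had 67.1 FPKM in dek33 and 30.05 in wild type, a log2 ratio of 1.13 that passed 2-fold only before centring (0.69 centred). The most abundant HMG member, nfd104 (GRMZM2G013821), had 75.5 and 47.0 FPKM, a log2 ratio of 0.67. GRMZM2G024247 had 7.07 and 6.47 FPKM, a log2 ratio of 0.11. The family therefore held genes above and below the median of all genes. Within the summed FPKM of the 5 genes, a measure that no scaling between libraries can change, nfd104 made up 37.9% in dek33 and 47.8% in wild type, while nfd106 made up 15.5% and 9.51% and nfd101 9.39% and 5.61%. These shares leave out HMG genes that only the reference names. MNB1B (GRMZM5G834758), more abundant than any HMG member, had 188 FPKM in dek33 and 132 in wild type, a log2 ratio of 0.50. HMGc2 (GRMZM2G156785) had 84.3 and 58.7 FPKM (0.52), nfd102 (GRMZM2G145968) 45.6 and 43.7 (0.06) and HMG5 (GRMZM2G060253) 0.665 and 1.13 (-0.35).

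Histone chaperones and their partners all had higher FPKM in dek33, by varying amounts. Chromatin assembly factor 1 subunit B (GRMZM2G009627, chromosome 6, 2038859 to 2045559), the counterpart of FAS2 in Arabidopsis, which places new H3 and H4 on replicated DNA, had 11.2 FPKM in dek33 and 4.45 in wild type. Its log2 ratio was 1.17 (0.73 centred), but its printed locus is shared with GRMZM2G313316 (11.6 and 5.38 FPKM), and reads of the pair may not be told apart. The group A factors nfa103 (GRMZM2G157019) and nfa104 (GRMZM2G075637) had 57.1 and 33.2 FPKM in dek33, against 36.2 and 20.5 in wild type. Of the summed FPKM of the 3 group A members, GRMZM2G176707 made up 28.7% in dek33 and 15.6% in wild type, and nfa103 45.1% and 53.9%. Left out of these shares are nfa101 (log2 ratio 0.62) and nfa102, group A genes that only the reference names. With 80.3 FPKM in dek33 and 32.0 in wild type, nfa102 was more abundant than any of the 3 in dek33, but not in wild type. WD-repeat factors of group C escort H3 and H4 and sit in several chromatin complexes. The 2 among the members kept their proportions, with nfc101 (GRMZM2G137965) at 59.8% of the pair in dek33 and 60.9% in wild type. In FPKM, nfc101 had 40.1 and 23.4 and its partner GRMZM2G090217 had 26.9 and 15.1. Group C genes outside the members differed more among themselves. The log2 ratio was 0.81 for nfc102 (84.8 FPKM in dek33 and 48.0 in wild type), 0.43 for nfc103 (29.3 and 21.5) and 1.53 for nfc104 (9.40 and 2.61).

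Polycomb repressive complex 2, which places the repressive methyl mark on H3, was represented by both FIE genes and all 3 EZ genes. FIE is the WD-repeat subunit, and maize fie1 is known as an endosperm-specific gene expressed from the maternal copy, whereas fie2 is also active elsewhere in the plant. The fie1 gene (GRMZM2G118205, chromosome 4, 35790694 to 35796700) had 54.5 FPKM in dek33 and 24.7 in wild type, a log2 ratio of 1.11 (0.67 centred), which passed 2-fold only before centring. The fie2 gene (GRMZM2G148924, chromosome 10, 84106322 to 84110776) had 5.47 FPKM in dek33 and 5.45 in wild type, a log2 ratio of 0.004 (-0.44 centred). Of the FIE total, fie1 thus made up 90.9% in dek33 and 81.9% in wild type, a difference of 8.98 percentage points.

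The catalytic EZ subunits kept their proportions. Maize mez1 (GRMZM2G157820), likewise known to be imprinted in endosperm, had 24.4 FPKM in dek33 and 19.1 in wild type. The paralogues mez2 (GRMZM5G875502) and mez3 (GRMZM2G043484) had 11.4 and 5.20 FPKM in dek33, against 9.83 and 3.74 in wild type. Their log2 ratios of 0.34, 0.19 and 0.39 all lay under the median of all genes, and mez1 made up 59.5% of the EZ total in dek33 and 58.5% in wild type. The Polycomb class also took in epc101 (GRMZM2G110548), an enhancer of polycomb-like protein whose yeast counterpart belongs to an acetyltransferase complex, with 6.23 FPKM in dek33 and 5.18 in wild type on a locus it shares with another gene.

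**Figure D4:**
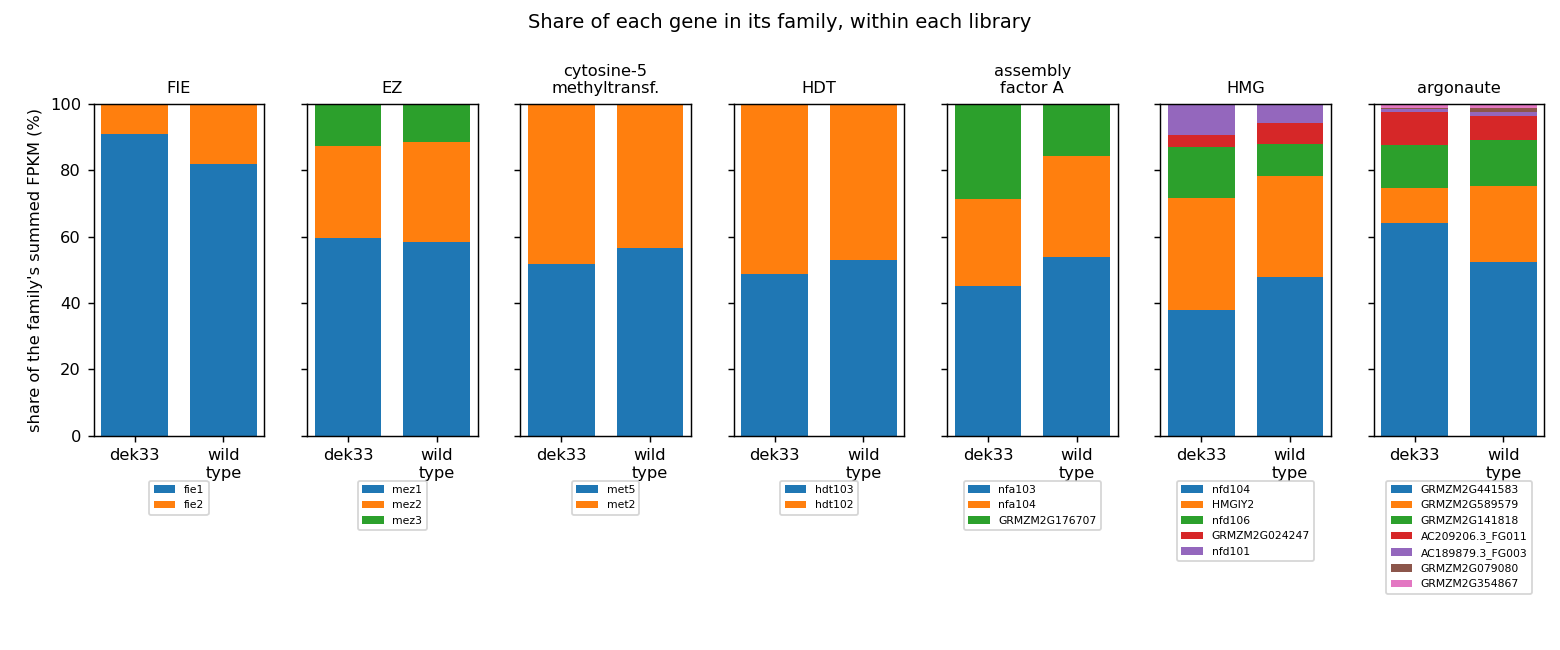
Share of each gene in the summed FPKM of its family (percent), dek33 bar left of the wild type bar, for 7 families with 1 library per genotype and no error bars. Families hold members only, without genes that only the reference names. The fie1 share is 90.9% in dek33 and 81.9% in wild type, the share of GRMZM2G176707 among the group A factors is 28.7% and 15.6%, and that of the argonaute GRMZM2G589579 is 10.3% and 23.1%, while the EZ bars are nearly alike.

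Among the other histone methyltransferases, which carry the SET domain, 1 of 5 with at least 5 FPKM was higher by the deposited values (20%, against 14.8% of all genes). None was higher after centring, against 4.4% of all genes. The SUVR3 gene GRMZM2G105869 (chromosome 2, 200042816 to 200045662) had 16.7 FPKM in dek33 and 7.17 in wild type, a log2 ratio of 1.11 (0.67 centred). The most abundant, set105 (GRMZM2G140577), had 74.5 and 39.6 FPKM, a log2 ratio of 0.90. The genes sdg110, sdg113 and GRMZM2G117458 had 10.4, 10.1 and 14.3 FPKM in dek33, against 8.23, 8.21 and 12.2 in wild type. These 3 ratios lay under the median of all genes. Below 5 FPKM, GRMZM2G033694 was the single gene of the class with less FPKM in dek33, at 2.20 against 4.59 in wild type. It was too low to be counted, as were SET104 (4.67 and 3.11 FPKM), GRMZM2G063316 (3.25 and 2.83) and sdg118 (2.08 and 0.853).

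The genes described as lysine-specific histone demethylase 1 differed among themselves in level and direction. LSD1-type demethylases share their amine oxidase domain with polyamine oxidases, and the description alone does not separate these enzymes. GRMZM2G000052 (chromosome 2, 8996296 to 9001551) had 3.47 FPKM in dek33 and 8.88 in wild type, 2.56-fold less, and was the only member counted as lower by the deposited values (log2 ratio -1.14, centred -1.58). Without the 3 genes of this description, 9 members were higher and none lower. With a minimum of 20 FPKM GRMZM2G000052 was not counted, and with a pseudocount of 5 it no longer passed 2-fold. GRMZM2G078033 and GRMZM2G150248 had 291 and 30.5 FPKM in dek33, against 214 and 18.1 in wild type. GRMZM2G078033 thus lay on the median of 0.44 of all genes, under the 0.64 of genes at 20 FPKM or more, and GRMZM2G150248 above both. GRMZM2G078033 made up 89.5% of the FPKM of the 3 genes in dek33 and 88.8% in wild type.

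Histone deacetylases, erasers of acetyl marks, were the largest class of members, with 13 genes, and differed rather evenly. Of 10 with at least 5 FPKM, 1 was higher (10%, against 14.8% of all genes) and none was lower, and after centring none was counted. The higher one, GRMZM2G081474 (chromosome 9, 84342406 to 84348561), had 8.86 FPKM in dek33 and 3.73 in wild type, a log2 ratio of 1.06 (0.62 centred). The HD2-type genes hdt102 (GRMZM2G100146) and hdt103 (GRMZM2G159032) had 145 and 138 FPKM in dek33, against 77.9 and 88.1 in wild type. The order of this pair was thus reversed between the libraries, although their shares differed by only 4.46 percentage points. Both genes for SAP18, a small subunit of deacetylase complexes, were also abundant, with 103 and 68.1 FPKM in dek33, against 61.7 and 48.0 in wild type.

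The RPD3-type deacetylases among the members were less abundant. The gene hda101 (GRMZM2G172883) had 43.3 FPKM in dek33 and 30.6 in wild type, HDA108 (GRMZM2G136067) 14.7 and 7.61, and hda102 (GRMZM2G119703) 14.4 and 9.86. Their log2 ratios were 0.49, 0.87 and 0.50, above the median of 0.44 of all genes. Those of hda101 and hda102 lay under the 0.52 of all genes at 5 FPKM or more. GRMZM2G005205, described as deacetylase 6, had 10.3 FPKM in dek33 and 5.73 in wild type, and hda110 (GRMZM2G107309) had 18.7 and 15.9, a log2 ratio of 0.22 that lay below that median (-0.22 centred). The remaining 3 members of the class were low, with GRMZM2G008425 at 2.12 and 2.05 FPKM, GRMZM2G163572 at 1.19 and 0.449 and GRMZM2G456473 at 0.152 and 0.159.

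Acetyltransferase genes, the opposing writers, differed by less than 2-fold. The gene hag101 (GRMZM2G046021), which encodes GCN5, the catalytic subunit of the SAGA coactivator, had 15.6 FPKM in dek33 and 12.5 in wild type. The type B enzyme hac106 (GRMZM5G851405), known to acetylate new histones before they reach chromatin, had 4.67 and 2.55 FPKM. GRMZM2G302778, described only as related to HPA2, had 6.04 and 4.22 FPKM. Proteins that in yeast sit in the NuA4 acetyltransferase complex were placed in other classes by their words. EAF3 (GRMZM2G484880) had 31.4 FPKM in dek33 and 17.9 in wild type, and DNA methyltransferase 1-associated protein 1 (GRMZM2G159155) had 29.2 and 20.3.

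The 3 DNA methyltransferases proper among the members had higher FPKM in dek33. None was counted as higher, against 14.8% of all genes by the deposited values and 4.4% after centring. Outside the members, the met1 model GRMZM2G334041, given below, was counted as higher before and after centring (log2 ratio 1.62, centred 1.18). The met4 gene (GRMZM2G157589), also outside, had 12.9 FPKM in dek33 and 9.67 in wild type, a log2 ratio of 0.38. Maize met2 (GRMZM2G025592, chromosome 10, 141612636 to 141620390) and met5 (GRMZM2G005310, chromosome 2, 10343925 to 10353440) are known as the chromomethylases Zmet2 and Zmet5, which maintain methylation outside CG sites. The met2 gene had 8.12 FPKM in dek33 and 3.84 in wild type, a log2 ratio of 0.91 (0.47 centred). The met5 gene had 8.70 and 4.98 FPKM, a log2 ratio of 0.70 (0.26 centred). Within the pair, met2 made up 48.3% in dek33 and 43.5% in wild type, and met5 stayed the more abundant. The third, dmt106 (GRMZM2G065599), had 17.5 FPKM in dek33 and 16.1 in wild type, a log2 ratio of 0.12 that lay under the median of all genes.

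Argonautes, which bind small RNAs and guide silencing, formed the class with the lowest median. GRMZM2G441583, the most abundant, had 53.7 FPKM in dek33 and 41.1 in wild type, and Argonaute104 (GRMZM2G141818), known for a role in meiosis, had 11.0 and 10.9. Argonaute104 shares its printed locus with GRMZM2G141925 (0.498 and 0.236 FPKM), which is low. GRMZM2G589579 (chromosome 8, 2511463 to 2518808) had 8.63 FPKM in dek33 and 18.1 in wild type, 2.10-fold less. Its log2 ratio of -0.99 fell just short of the 2-fold limit, which it passed after centring (-1.43). Of the summed argonaute FPKM this gene made up 10.3% in dek33 and 23.1% in wild type, and GRMZM2G441583 64.2% and 52.2%. AC209206.3_FG011 had 8.18 and 5.69 FPKM. The other 3 argonautes were near or below 1 FPKM. AC189879.3_FG003 had 0.968 FPKM in dek33 and 1.07 in wild type, GRMZM2G354867 had 1.07 and 0.864, and GRMZM2G079080 had 0.0885 and 0.993.

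Remodelling factors with an SNF2 motor lay between these classes. GRMZM2G050218, described as an SNF2 transcription factor, had 43.8 FPKM in dek33 and 32.5 in wild type, and AC235535.1_FG001, of a chromatin-remodelling family, had 28.1 and 19.6. GRMZM2G178758 had 8.68 and 6.45 FPKM. Both genes that join an SNF2 domain to a RING finger, the fold of many ubiquitin ligases, had less FPKM in dek33, with 7.40 against 10.9 for GRMZM2G449355 and 0.261 against 0.921 for GRMZM2G324781. Neither was counted as lower. A core subunit of the SWI/SNF remodelling complex, subfamily B member 1 (GRMZM2G121510, chromosome 8, 128823578 to 128826612), had 25.9 FPKM in dek33 and 11.7 in wild type, a log2 ratio of 1.08 (0.64 centred). The chromatin complex subunit gene cha101 (GRMZM2G177165) had 7.97 and 3.50 FPKM and, at 1.00, fell just short of the limit. A model named chr122 (GRMZM2G097289) had 14.3 and 13.5 FPKM, a log2 ratio of 0.07. Another model of this name outside the members, GRMZM2G303105, had 19.5 and 14.8 FPKM, a log2 ratio of 0.38.

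Genes of the same processes outside the members were sorted by further word lists. For comparison with their counts, 14.8% of all genes were higher and 4.02% lower, or 4.4% and 6.79% after centring. Of 5 small RNA pathway genes with at least 5 FPKM, 1 was higher and none lower, with mop1 (GRMZM2G042443), the RNA-dependent RNA polymerase needed for paramutation, at 19.0 FPKM in dek33 and 7.27 in wild type. Below the limit, rmr2 had 6.88 and 3.10 FPKM, rmr7 11.5 and 10.2 and the SGS3 gene lbl1 47.7 and 40.0. Of 22 reader and complex subunit genes, 1 was higher (4.55%) and none lower, and it was nfc104 (GRMZM2G032711), described as MSI1, with 9.40 and 2.61 FPKM. The next highest, GRMZM2G017142, had 37.8 and 18.8 FPKM, and the lowest ratios were those of GRMZM2G475583 (5.79 and 8.11) and GRMZM2G054162 (21.2 and 21.8). Of 3 further histone chaperones, 1 was higher, the anti-silencing protein 1 gene GRMZM2G057369 with 9.34 and 3.37 FPKM, while the FACT subunits SSRP1 and SPT16 had 31.4 and 24.2 FPKM in dek33, against 22.5 and 16.1 in wild type. Of 3 arginine methyltransferases 1 was higher, GRMZM2G003038, with 29.5 and 10.8 FPKM. In the methyl donor cycle, which supplies S-adenosylmethionine to all these methyltransferases, 1 of 5 genes was higher before centring, adenosylhomocysteinase (GRMZM2G015295, 274 and 134 FPKM), and a synthase gene (GRMZM2G117198) had 35.2 FPKM in dek33 against 62.8 in wild type. After centring, nfc104 was the only gene of these 5 lists that was still counted as higher. The methyl donor list then had none of 5 higher and 1 lower, the synthase gene GRMZM2G117198 (centred -1.26), so the direction of its counts depended on the scaling. The list medians were 0.38, 0.41, 0.56, 0.97 and 0.54 in the order given, against 0.44 for all genes. A structural maintenance of chromosomes protein (GRMZM2G383623, 6.60 and 2.47 FPKM) and a DNA glycosylase (GRMZM2G425986, 1.28 and 0.633 FPKM) were the sole genes of their lists.

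Descriptions missed some chromatin genes that the reference gene table names. A search for such names, made after the values were seen, found 53 gene models of 46 genes, some of them also in the lists above. Their median log2 ratio was 0.49. Of 48 with at least 5 FPKM, 6 (12.5%, against 14.8% of all genes) were higher and 1 (2.08%, against 4.02%) lower. After centring, 2 (4.17%, against 4.4%) were higher and 1 (2.08%, against 6.79%) lower. Both models of met1 (dmt101), the methyltransferase that maintains CG methylation, stood near the top, with 14.1 FPKM in dek33 and 3.94 in wild type for GRMZM2G334041 and 4.70 and 1.48 for GRMZM2G333997. The group A chaperone nfa102 (GRMZM2G121186) had 80.3 and 32.0 FPKM, and vef101 (GRMZM2G157422), a relative of the Polycomb subunit EMF2, had 22.3 and 11.8. The lower one, GRMZM2G435541, with 4.17 FPKM in dek33 and 10.2 in wild type, is 1 of 4 models of chr124, of which the other 3 had more FPKM in dek33. The next lowest ratio was that of mbd105 (GRMZM2G476933), with 7.09 FPKM in dek33 and 10.1 in wild type.

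The core and linker histones on which these proteins act had a larger difference, with a median log2 ratio of 1.49. Of 71 genes, 49 (69%, against 14.8% of all genes) were higher and 2 (2.82%, against 4.02%) lower before centring. After it, 36 (50.7%, against 4.4%) were higher and 2 (2.82%, against 6.79%) lower. The highest ratios were those of an H4 gene (GRMZM2G073275, 154 FPKM in dek33 and 25.8 in wild type) and an H3 gene (GRMZM2G451254, 81.9 and 13.7), and the lower pair were an H2B gene (GRMZM2G442555, 0.476 and 6.36) and an H3 gene (GRMZM2G176358, 5.79 and 12.8). Markers of dividing cells had 4 of 12 higher and none lower, or 2 and none after centring, a median of 0.55 over 21 genes and summed levels of 457 FPKM in dek33 and 324 in wild type. A single kinase subunit gene (AC149818.2_FG004, 187 and 170 FPKM) made up 40.8% of this sum in dek33 and 52.6% in wild type. The words also took in 3 kinase inhibitors and 1 calcyclin-binding protein, and without them the list had 4 of 10 higher, a median of 0.61 and sums of 394 and 279 FPKM. These levels were higher in dek33 along with those of the HMG and chaperone members, and their part in those values was not tested. Markers of embryo and scutellum had 9 of 11 lower and 1 higher, or 10 and 1 after centring, and summed levels of 2161 FPKM in dek33 and 8832 in wild type. The higher one, a non-symbiotic hemoglobin, was matched through a shared synonym. Basal transfer layer markers had 1 of 7 lower and 1 higher, or 4 and 1 after centring, with sums of 255 and 451 FPKM, the higher one again matched through a synonym. Aleurone markers had none of 5 counted, with sums of 263 and 232 FPKM. Green tissue markers, 17 genes of which none reached 5 FPKM, summed to 6.49 and 3.91 FPKM, and 2 were listed at 0 in wild type. The part of these tissues in the chromatin gene values was not tested.

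**Figure D5:**
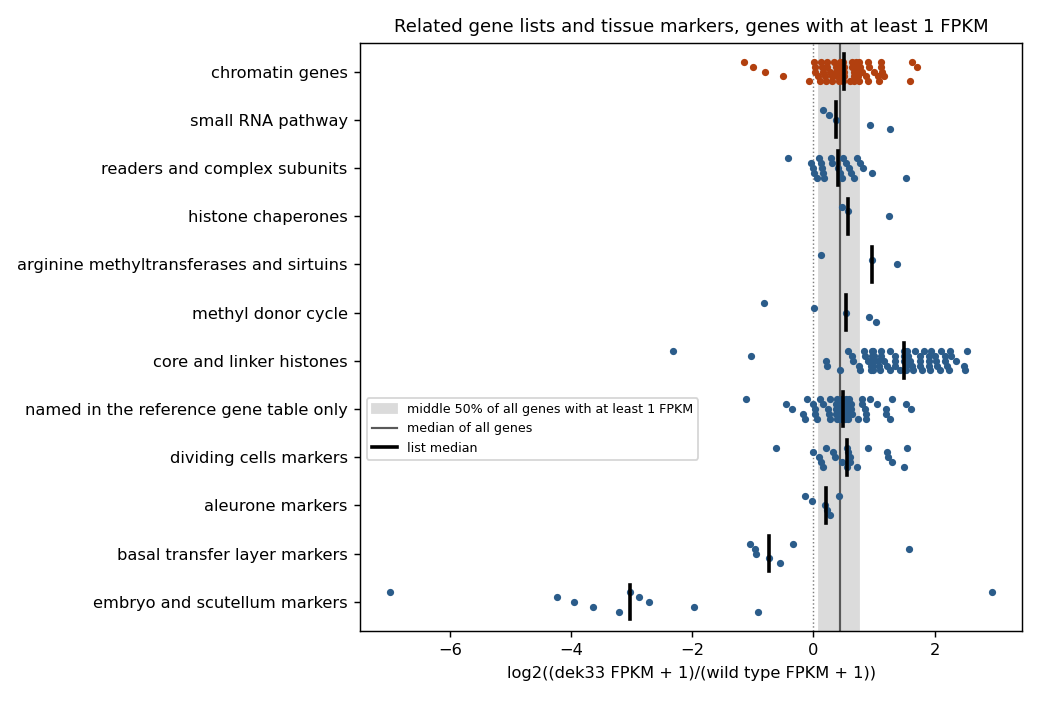
Log2 ratio of dek33 over wild type (horizontal axis) for the chromatin genes, for lists of related genes and for tissue markers, genes with at least 1 FPKM, with list medians as black bars and the middle 50% of all genes shaded. The chromatin genes, with a median of 0.50, lie around the median of all genes, the histones lie to the right at 1.49 and the embryo markers to the left at -3.04.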

How the data were processed

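The authors deposited FPKM, 1 value per gene and genotype, with 1e-05 in the place of 0. The aligner Bowtie 0.12.2 and the build B73 RefGen_v3 are listed in the submitters' processing notes. Not given in the sources used here are the FPKM program and how replicates were joined. Reads could not be recovered from FPKM, because the ratios of 4314 genes under 0.3 FPKM were smooth (at most 2.20% of genes in a bin of 0.05 log2 units). Depth is unknown, and counting intervals are left out. Samples were grouped by genotype label. With 1 library each there was no test. Ratios used a pseudocount of 1, counts a minimum of 5 FPKM and medians 1 FPKM. Starts were raised by 1, which made the span divisible by 3 in 80.0% of 559 short predicted models, against 9.84% as printed. A RefSeq table of the NAM-5.0 assembly matched 56 of 65 members and was used for names only. Near-identical copies and genes that share a locus (4 members) can exchange reads.

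Members and lists were chosen with earlier results of these data known. Named genes were, in each class, the 3 highest, 3 lowest and 3 most abundant, all counted genes, all with a name in the reference, and the 2 highest and 2 lowest of each related list. Genes named only by the reference were picked without this rule. The other 8 members are given so that every member is accounted for. Family shares, corrected marker lists and genes named only by the reference were chosen after their values were seen. The code was checked on simulated data, with planted changes well above the 2-fold limit in genes at 20 FPKM or more and little noise. That check does not show how reliable calls near the limit or in low genes are. Alternatives were other pseudocounts, minimums, fold limits and scalings. Tables were handled with pandas 2.3.3 and numpy 2.4.6 in Python 3.11.15, intervals with scipy 1.17.1 and figures with matplotlib 3.10.9.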

Additional observations from a re-analysis of the deposited data

How the results depend on the processing

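The count of 9 of 53 members higher in dek33 (17%, against 14.8% of all genes) became 5 with a pseudocount of 5 (9.43%, against 7.23%). With a minimum of 20 FPKM it was 5 of 24 (20.8%, against 19.5%). It became 3 (5.66%) when centred, scaled by a trimmed mean of M values or to equal totals without zeins, against 4.4%, 4.04% and 4.59% of all genes. At 1.5-fold it was 25 (47.2%, against 44%) and at 4-fold 0, against 1.53%. Adding genes named only in the reference, chosen after seeing the data, gave 15. The count of 1 lower (1.89%, against 4.02%) became 2 with a pseudocount of 0.1 (3.77%, against 4.61%) and at 1.5-fold (3.77%, against 6.55%). Each scaling also gave 2 (3.77%), against 6.79%, 6.87% and 6.41% of all genes in the order given. The added genes gave 2 as well. It became 0 with a pseudocount of 5 (against 2.42%), a minimum of 20 FPKM (4%) and at 4-fold (1.37%). Without the 3 genes described as lysine-specific demethylase 1, an alternative also chosen after seeing the data, it was 0 too. For all 14348 genes, 2118 higher and 577 lower became 1038 and 347 with a pseudocount of 5, 6316 and 940 at 1.5-fold and 219 and 196 at 4-fold. At 20 FPKM they became 1203 and 247 of 6181 genes. Without a filter 894 of 33283 were lower. By centring, by trimmed mean and by totals without zeins, in that order, they became 632, 579 and 659 higher and 974, 986 and 919 lower.

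A median counts as moved when it leaves its exact binomial 95% interval over genes, or the range of classes under 6 genes. This is a yardstick for settings only. Its width depends on the number and spread of the genes, which are not replicates, and it measures no error between libraries. The member median of 0.50 moved to 0.70 at 20 FPKM and, in the order of scalings above, to 0.056, 0.0069 and 0.0634. That of all genes moved to 0.52 and 0.26 with pseudocounts of 0.1 and 5, 0.22 without a filter, 0.64 at 20 FPKM, and 0, 0.0086 and 0.0593 by scaling. Scaling moved the Polycomb class to -0.21, -0.21 and -0.16, histone methyltransferases to -0.12, -0.16 and -0.10, acetyltransferases to -0.0090, 0.0001 and 0.0498, deacetylases to 0.18, 0.17 and 0.23 and other chromatin proteins to 0.35, 0.29 and 0.35. A pseudocount of 5 moved acetyltransferases to 0.26. Regrouping the classes by hand, chosen after seeing the data, left 2 other chromatin proteins, at 0.53. The scalings lower every ratio by construction, and larger pseudocounts draw ratios toward 0. Of the 57 members named by rule, none changed sign past the limit, and each scaling ended 6 calls and added 1. No description of a member named an HMG-CoA enzyme or a plainly unrelated protein, so members were not recounted without such descriptions. Leaving out the 4 members on shared loci left 8 higher and 1 lower and kept every class median within its interval or range. No paired analysis was possible because there is 1 library per genotype, and for the same reason no replicate could be left out. Unknown depth limits what low values can show.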
